A study of Mus musculus with 6 samples.

Results

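The 49 genes described here encode the machinery that licenses origins of replication and copies DNA at the fork. They were chosen by name for their known roles, with earlier results of these data known. By gene symbol, all 49 were found among the 54532 genes of the count table. All 49 passed the filter on low counts that left 15938 genes for testing. RNA was sequenced from CD4+ T cells taken from the spleens of male C57BL/6 mice of 6 to 8 weeks and cultured under Th1 conditions, that is, on anti-CD3ϵ with anti-CD28, IL-2, IL-12p70 and an antibody that blocks IL-4. In 3 cultures the cells received 500 nM of ALX-5407, a small molecule that blocks glycine uptake by GlyT1, and in 3 control cultures they received the vehicle, 0.1% DMSO. The labels give 72 h in Th1 conditions for both groups and name no length of exposure to the compound, and the study's methods give exposures that differ between passages, so the time in ALX-5407 is not certain. Both groups carried the same genotype, and the labels number the cultures as biological replicates without saying whether they came from separate mice.

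In a dividing cell, the origin recognition complex (ORC) binds DNA in G1 phase and, with Cdc6 and Cdt1, loads the ring-shaped MCM2-7 helicase in an inactive form, a step called licensing. At the start of S phase the kinases CDK and DDK drive Cdc45 and the GINS complex onto MCM2-7 to form the active CMG helicase, after which polymerases, the sliding clamp PCNA and its loader RFC, the single-strand binder RPA, the enzymes that join Okazaki fragments, and the histone chaperone CAF-1 work at the moving fork. Activated T cells divide fast, and many of these genes are transcribed in late G1 and S phase under the E2F factors.

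The libraries held 30801753 to 36727788 counts. Of the cell type markers, the 8 T cell genes summed to 2387 to 2474 CPM (counts scaled to library size) in vehicle libraries and 2322 to 2349.9 CPM with ALX-5407. Of these 8, 2 were called higher and 4 lower, so the sums hold moves in both directions. The RNA carried little of other cell types. The 6 B cell genes, of which 4 were called higher, summed to 9.75 to 10.9 CPM against 15.4 to 18.1 CPM. The 7 myeloid genes summed to 15.5 to 20.99 CPM against 5.38 to 6.30 CPM, nearly all of it Cd68, with the other 6 under 0.5 CPM in both groups. The sums for the 2 CD8 T cell genes were 9.25 to 9.59 against 6.71 to 8.87 CPM, for the 4 NK genes, mostly Eomes, 1.92 to 3.41 against 4.96 to 5.58 CPM, for the 4 dendritic genes 0.798 to 1.05 against 0.685 to 0.736 CPM, and for the 6 erythroid and platelet genes 0.921 to 1.59 against 1.68 to 3.62 CPM, with the dendritic gene Siglech at 0 in all 6 libraries. Transcripts of the mitochondrial genome took 2.67 to 3.12% of the counts in vehicle libraries and 1.94 to 2.05% with ALX-5407. The part of these differences in the results that follow was not tested.

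Replication genes were mostly higher in the cultures with ALX-5407. In RNA from whole cultures, more cells in cycle and more RNA per cell cannot be told apart. Of the 49 genes, 38 (77.6%) were called higher and 3 lower at an adjusted p under 0.05 (edgeR quasi-likelihood test, Benjamini-Hochberg over all tested genes), where 24.5% of all tested genes were called higher and 23.2% lower. The 3 lower genes were Orc3, Orc5 and Cdc7, and the 8 not called were Orc4, Orc6, Gins3, Prim2, Pold3, Pcna, Rfc2 and Rpa3. The median log2 fold change of the 49 was 0.66 (1.58-fold), beside 0.0053 over all tested genes, and the folds of the 38 ran from 1.18 to 2.51. Past a log2 fold change of 1 in the higher direction stood Fen1, Cdt1 and Mcm2, a share of 3 in 49 where 3.36% of all genes were, and past 1 in the lower direction there were 0, beside 6.68% of all genes. In 39 genes all ALX-5407 values lay above all vehicle values, against 28.4% of all tested genes, and in 3 all lay below, against 27.1%.

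The 49 genes together took 0.294, 0.292 and 0.319% of all counts in the vehicle libraries and 0.467, 0.447 and 0.470% with ALX-5407. Their summed level was 3080 ± 100.2 CPM (SD, n = 3) against 4523 ± 105 CPM, 1.47 times as much. The 6 MCM2-7 genes made up 26.4% of this sum in vehicle cultures and 33.1% with ALX-5407, and the sum of the 43 other genes went from 2267 ± 94.1 to 3026 ± 59.0 CPM. The genes differed from library to library by a median coefficient of variation of 7.64% in vehicle and 4.69% in ALX-5407 cultures. Vehicle replicate 3 held the highest vehicle value of 32 of the 49 genes, and of all 6 genes whose log2 fold change was below 0.

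**Figure D1:**
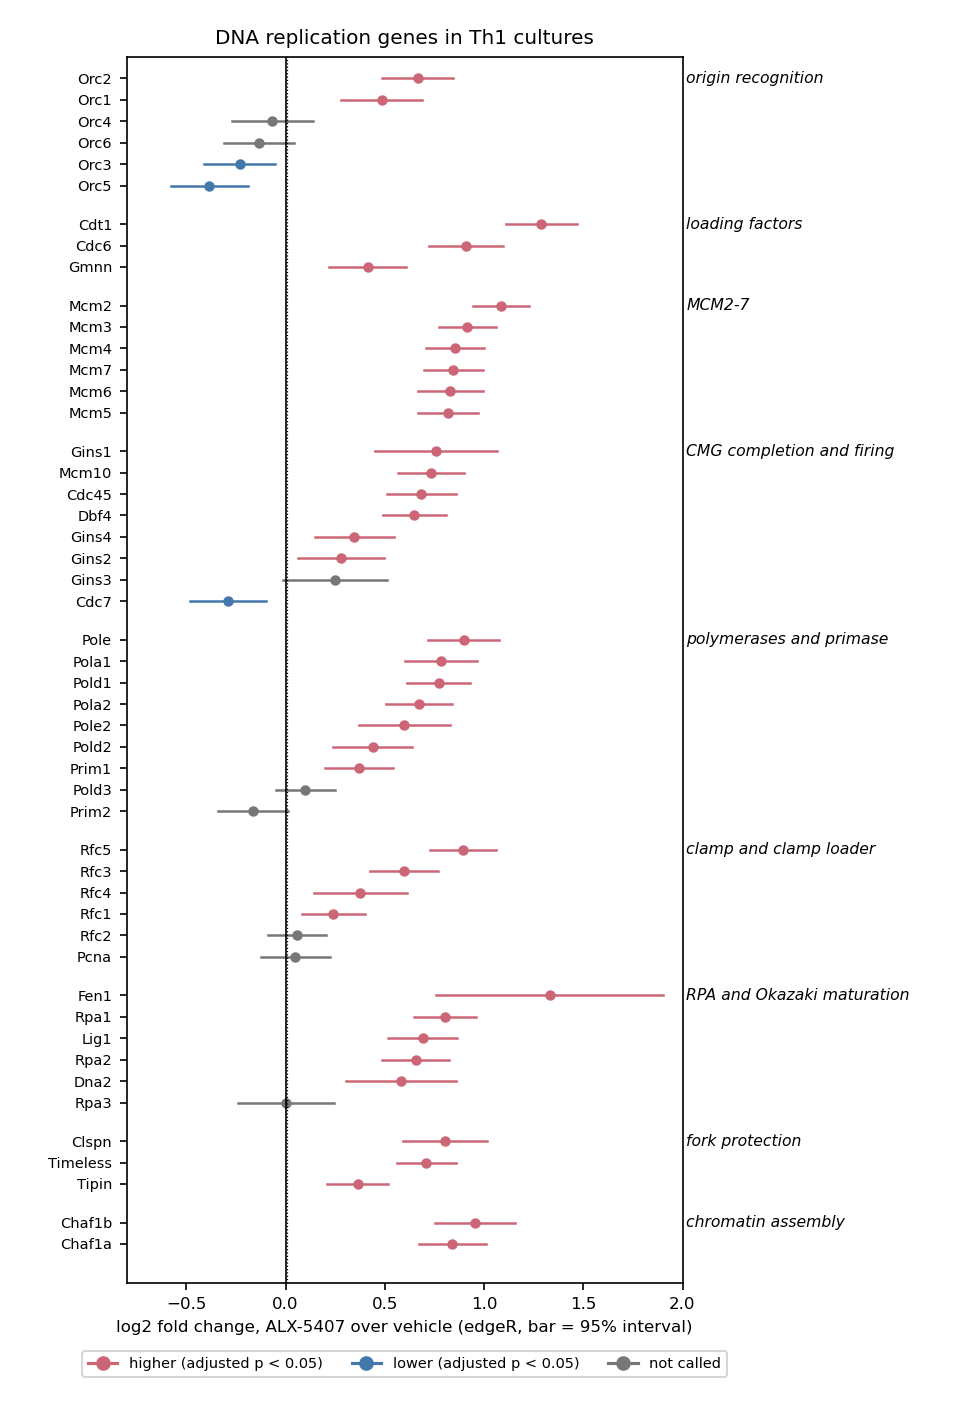
Log2 fold change (x axis, ALX-5407 over vehicle, edgeR, bars are 95% intervals) of each of the 49 genes, grouped by role, with the dotted line at the median of all tested genes. The 38 red points are genes called higher, the 3 blue points (Orc3, Orc5, Cdc7) genes called lower and the 8 grey points genes not called. Origin recognition, the helicase completion and firing group, and the polymerases and primase each have points on both sides of 0.

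Gene length moved with the fold change across the whole transcriptome. The median log2 fold change of all tested genes ran from -0.26 in the shortest of 5 length classes of like size to 0.10 in the longest. The members stood above that median in each class, at 0.38 (5 members), 0.40 (8), 0.67 (13), 0.71 (15) and 0.79 (8) from the shortest to the longest. Exons of other genes, on the opposite strand, cover 84.2% of the exon bases of Fen1 (mainly Gm10143), 67.3% of Gins2 (mainly Gse1) and 52.5% of Chaf1a (mainly Ubxn6). The strand setting of the counting is not known, so reads of these genes may be mixed or left uncounted. Without these, 35 of 46 genes were called higher, with a median of 0.65. For Cdc6, Mcm7, Pcna and Rfc5 the annotation holds a pseudogene at 95% identity or more, and that of Pcna had 486 counts over the 6 libraries against a mean of 11304 per library for Pcna itself.

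The sequences before the start sites were searched for the letters of an E2F site, since E2F factors are known to act on many of these genes. RefSeq windows (GRCm38.p6) of 300 bases, from 250 before to 50 after the start, were found for 40 of the 49 genes, 49 windows in all. Any of TTTCCCGC, TTTCGCGC, TTTGCCGC and TTTGGCGC, on either strand, was found in 16 of the 49 windows (32.7%), beside 2.26% of all 32851 windows of this length. The share was 35.1% in the 37 windows of genes called higher and 25% in the 12 windows of the genes lower or not called, among the latter Orc3, Gins3 and Pold3. Some genes have more than 1 window. By gene, the letters were found in 13 of 31 called higher and in 3 of 9 lower or not called, a small base. A CCAAT box (CCAAT on either strand) stood in 25 member windows, 51%, beside 37.4% of all windows. The most matches were in Mcm6 with 3, followed by Mcm3, Mcm5, Mcm7 and Rfc3 with 2. The bases before the start are shown for the members past a log2 fold change of 1, for Orc5 and Cdc7, the genes with the lowest log2 fold changes, and, chosen after their matches were seen, for Mcm5 and Mcm6, where E2F letters lie before the start. E2F letters before the start were also found in Cdc6, Gins3, Mcm7, Orc1, Orc3, Pola1 and Rfc3, which are not shown. The bases are written 5′ to 3′ on the gene's strand, with E2F letters and CCAAT boxes in capitals.
Fen1 (chr19:10204394-10204643, minus strand): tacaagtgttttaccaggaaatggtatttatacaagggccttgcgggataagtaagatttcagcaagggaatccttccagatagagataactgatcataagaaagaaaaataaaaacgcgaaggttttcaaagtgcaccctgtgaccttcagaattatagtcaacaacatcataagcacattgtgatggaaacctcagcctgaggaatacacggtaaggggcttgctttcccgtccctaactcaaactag
Cdt1 (chr8:122567765-122568014, plus strand): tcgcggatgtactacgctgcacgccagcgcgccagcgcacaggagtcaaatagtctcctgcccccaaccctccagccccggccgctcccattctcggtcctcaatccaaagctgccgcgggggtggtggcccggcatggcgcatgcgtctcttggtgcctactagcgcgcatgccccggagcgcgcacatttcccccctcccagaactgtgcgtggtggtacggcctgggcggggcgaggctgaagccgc
Mcm2 (chr6:88898781-88899030, minus strand): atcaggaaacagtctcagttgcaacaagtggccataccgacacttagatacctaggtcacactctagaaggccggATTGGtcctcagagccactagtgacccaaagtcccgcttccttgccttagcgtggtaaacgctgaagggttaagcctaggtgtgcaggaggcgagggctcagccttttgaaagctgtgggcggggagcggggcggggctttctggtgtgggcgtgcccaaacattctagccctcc
Orc5 (chr5:22550473-22550588, minus strand): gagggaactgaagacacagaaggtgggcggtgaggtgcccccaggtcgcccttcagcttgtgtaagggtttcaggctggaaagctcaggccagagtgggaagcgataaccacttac
Cdc7 (chr5:106964072-106964321, plus strand): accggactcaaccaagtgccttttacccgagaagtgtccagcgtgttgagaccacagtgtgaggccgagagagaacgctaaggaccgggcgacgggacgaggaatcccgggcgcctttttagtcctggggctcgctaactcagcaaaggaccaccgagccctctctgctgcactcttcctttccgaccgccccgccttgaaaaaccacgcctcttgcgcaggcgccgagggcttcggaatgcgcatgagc
Mcm5 (chr8:75109259-75109508, plus strand): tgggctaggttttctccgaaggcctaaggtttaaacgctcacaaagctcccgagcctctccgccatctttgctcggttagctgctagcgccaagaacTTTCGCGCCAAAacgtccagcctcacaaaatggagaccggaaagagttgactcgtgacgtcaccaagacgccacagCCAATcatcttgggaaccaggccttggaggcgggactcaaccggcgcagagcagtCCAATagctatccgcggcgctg
Mcm6 (chr1:128359706-128359955, minus strand): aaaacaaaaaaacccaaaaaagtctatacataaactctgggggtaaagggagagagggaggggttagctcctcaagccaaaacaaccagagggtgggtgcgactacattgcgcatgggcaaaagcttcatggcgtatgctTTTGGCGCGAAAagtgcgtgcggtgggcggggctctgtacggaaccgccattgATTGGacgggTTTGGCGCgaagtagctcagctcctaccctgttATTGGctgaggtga
The first E2F letters of Mcm5 begin 153 bases before the start, and the next begin at 149 on the other strand and overlap them, so that both are read in 1 capital stretch. In Mcm6 such an overlapping pair begins 110 and 106 bases before the start and a further match at 47. Mcm2 has a CCAAT box and no E2F letters, the Fen1 stretch (an alternative RefSeq start), Orc5 and Cdc7 have neither, and the single E2F match of Cdt1 lies after its start. Orc3, the other gene called lower, has an E2F match that begins 41 bases before its start, inside an exon of its neighbour Rars2. Outside the stretches shown, exons were looked up for the match of Orc3 alone, so this does not set it apart from the other genes. The stretch of Orc3 is not shown because only the 2 genes with the lowest log2 fold changes were chosen from the lower side. Absence of these letters from a window says nothing of the factor.

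The origin recognition genes went in different directions. Of the 6, Orc1 and Orc2 rose, Orc3 and Orc5 fell, and Orc4 and Orc6 were not called, and the median log2 fold change was -0.10. Each direction thus held 33.3% of these 6 genes, near the 24.5% of all tested genes called higher and 23.2% called lower. With so few genes, the split is not a trait that sets them apart from all genes. Orc1, the subunit that mammalian cells are known to degrade in S phase, was at 15.6, 15.4 and 15.7 CPM in the vehicle libraries and 22.4, 20.6 and 22.2 CPM with ALX-5407. Orc2 was at 25.2, 24.0 and 27.4 CPM against 40.4, 40.7 and 40.6 CPM. Both genes were higher in every ALX-5407 library than in any vehicle library, by log2 fold changes of 0.49 (adjusted p = 0.000559) and 0.67 (adjusted p = 7.61e-06). Orc5, one of the ATP-binding subunits of the ring, stood at 44.8, 41.1 and 52.8 CPM in vehicle and 35.6, 35.9 and 34.8 CPM in ALX-5407 cultures. Orc3 was at 106, 109 and 131 CPM against 99.0, 93.2 and 102 CPM. The groups did not overlap for either gene, with log2 fold changes of -0.38 (adjusted p = 0.00268) and -0.23 (adjusted p = 0.0331). The call of Orc3 was lost without vehicle replicate 3, where its log2 fold change was -0.14 (adjusted p = 0.0931), and without ALX-5407 replicate 1 (adjusted p = 0.0844) or 2 (adjusted p = 0.155), while Orc5 was called lower in all 17 alternatives. Orc4 was at 50.2, 50.2 and 65.7 CPM against 52.2, 52.9 and 53.5 CPM. Orc6, the subunit that stands apart from the ATP-binding core, was at 43.1, 50.3 and 50.3 CPM against 42.8, 43.0 and 45.2 CPM. The groups overlapped for both, with 95% intervals of the log2 fold change of -0.27 to 0.14 and -0.31 to 0.042.

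All 3 genes around the loading of the helicase rose. Cdt1 (chromosome 8, 122568015 to 122573554, plus strand, mm10), which brings MCM2-7 to ORC had a log2 fold change that only Fen1 exceeded among the 49. It was at 26.6, 24.6 and 28.7 CPM in vehicle and 67.4, 61.0 and 66.8 CPM in ALX-5407 libraries. Its log2 fold change was 1.29 ± 0.0844 (SE), or 2.44-fold (adjusted p = 7.74e-09). Cdc6, the ATPase that completes the ring with ORC, was at 24.1, 27.4 and 26.3 CPM against 50.9, 44.7 and 50.5 CPM, 1.88-fold higher with no overlap (adjusted p = 4.47e-07). Gmnn encodes geminin, which binds Cdt1 and blocks relicensing in S and G2 phase. Its values were 34.7, 44.0 and 43.6 CPM against 54.6, 55.0 and 53.2 CPM. Geminin was thus also higher in every ALX-5407 library, but by 1.33-fold (adjusted p = 0.00134). At 1465 bases, Gmnn is in the shortest length class, whose median log2 fold change was -0.26. Its log2 fold change ran from 0.30 to 0.58 over the 17 alternatives, and that of Cdt1 (3140 bases) from 1.22 to 1.34. Per kilobase of gene length, the ratio of Cdt1 to Gmnn was 0.358, 0.261 and 0.307 in vehicle and 0.576, 0.518 and 0.585 in ALX-5407 libraries. The groups did not overlap, with means of 0.308 ± 0.0483 and 0.560 ± 0.0368 (SD, n = 3), and the exact permutation test gave p = 0.1, the smallest that 3 against 3 allow. This pair was chosen after its values were seen, and the part of the length trend in its ratio was not tested.

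The 6 subunits of the MCM2-7 helicase rose together, in each case with every ALX-5407 value above every vehicle value. Their folds lay between 1.76 and 2.12, with a median log2 fold change of 0.85. Mcm2 (chromosome 6, 88883474 to 88898780, minus strand), whose tail also binds histones, was at 88.0, 87.5 and 87.2 CPM in vehicle and 189.9, 187 and 181 CPM with ALX-5407. Its log2 fold change was 1.09 ± 0.0673 (SE, adjusted p = 4.38e-09), the largest of the 6. The values of Mcm3 were 154, 150.2 and 143 CPM against 281, 277 and 285 CPM. The tail of Mcm3 contacts ORC and Cdc6 during loading, and its log2 fold change was 0.92. For Mcm4, a subunit that is a target of DDK, vehicle libraries gave 129, 125 and 128 CPM and ALX-5407 libraries 236, 217 and 237 CPM. Mcm5, which forms the gate of the ring with Mcm2, was at 138, 126 and 132 CPM against 241, 223 and 233 CPM. The log2 fold changes of these were 0.85 and 0.82. Mcm6, a binding partner of Cdt1 and the gene with the most E2F letters in its window, was at 208, 200.2 and 232 CPM against 377, 361 and 401 CPM. Mcm7, the subunit that is ubiquitinated when the helicase is unloaded, was at 107, 106 and 100.2 CPM against 197, 179 and 187 CPM. Their log2 fold changes were 0.83 and 0.85, and the largest adjusted p of the 6 was 2.87e-07. The summed level of the 6 genes was 823, 795 and 823 CPM in vehicle and 1523, 1443 and 1524 CPM in ALX-5407 libraries.

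**Figure D2:**
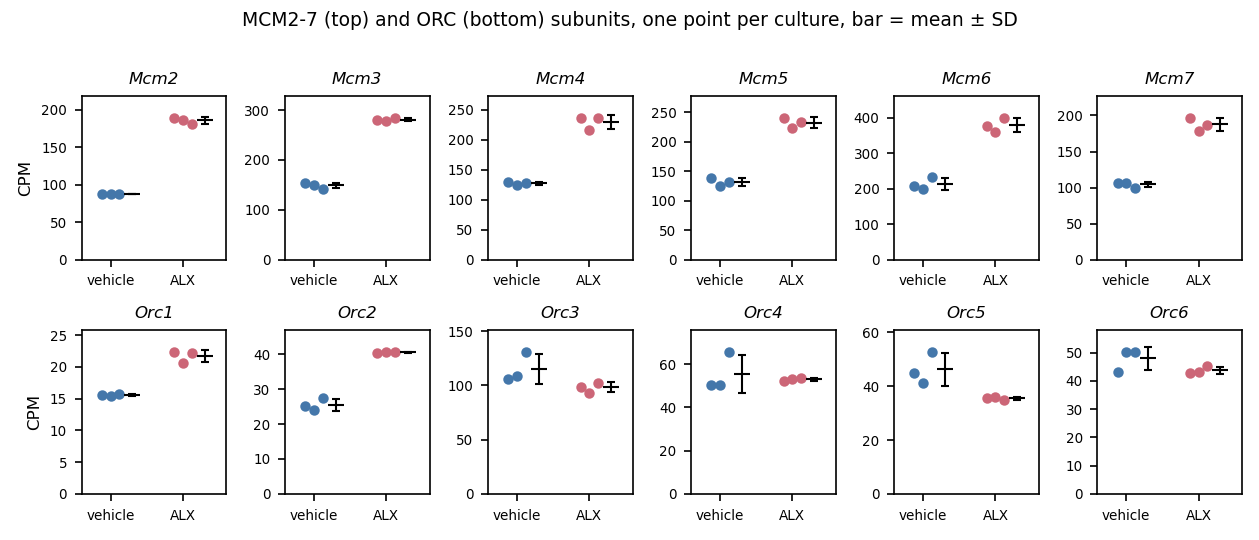
CPM (y axis, from 0) of the MCM2-7 subunits (top) and ORC subunits (bottom) in each culture, with vehicle in blue, ALX-5407 in red and bars for mean ± SD (n = 3). All 6 MCM genes separate the groups upward; Orc1 and Orc2 do so too, Orc3 and Orc5 lie lower with ALX-5407, and Orc4 and Orc6 overlap.

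Of the 8 genes that turn the loaded ring into a working helicase, 6 rose, Cdc7 fell and Gins3 was not called. Cdc45, which with GINS completes the CMG helicase, was at 38.6, 40.0 and 42.6 CPM against 70.6, 60.5 and 63.5 CPM (log2 fold change 0.68, adjusted p = 4.30e-06). Mcm10, which helps the assembled CMG to start, was at 34.2, 33.6 and 35.3 CPM against 60.7, 55.9 and 54.8 CPM (log2 fold change 0.73, adjusted p = 1.29e-06). Both separated the groups fully. Of the 4 GINS subunits, which act as 1 complex in equal parts, 3 rose. Gins1 was at 7.37, 7.30 and 9.36 CPM against 16.1, 12.3 and 12.2 CPM, and Gins4 at 24.2, 24.9 and 29.9 CPM against 33.9, 33.3 and 33.3 CPM. These did not overlap between groups, with log2 fold changes of 0.76 (adjusted p = 0.000424) and 0.35 (adjusted p = 0.00618). Gins2 was at 23.6, 19.6 and 20.4 CPM against 27.4, 23.3 and 26.6 CPM, and Gins3 at 9.21, 10.1 and 9.26 CPM against 12.4, 11.4 and 10.2 CPM. Gins2 overlapped by 1 value and was called by a small margin (log2 fold change 0.28, adjusted p = 0.0336). That call was lost in 8 of 17 alternatives, among them leaving out vehicle replicate 2 (adjusted p = 0.161) or 3 (0.0860) and ALX-5407 replicate 1 (0.125) or 3 (0.0900). For Gins3 the groups did not overlap but the gene was not called, and the log2 fold change was 0.25 with a 95% interval of -0.014 to 0.51.

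The kinase DDK is made of the catalytic subunit Cdc7 and its activator Dbf4, of which Cdc7 was called lower and Dbf4 higher. Dbf4 was at 45.5, 46.3 and 48.1 CPM in vehicle and 69.2, 72.4 and 77.8 CPM in ALX-5407 libraries (log2 fold change 0.65, adjusted p = 3.19e-06). Cdc7 (chromosome 5, 106964322 to 106984432, plus strand), whose promoter stretch held neither motif, was at 47.9, 49.9 and 60.2 CPM against 43.1, 41.4 and 44.8 CPM (log2 fold change -0.29, adjusted p = 0.0147). In neither gene did the groups overlap, but Cdc7 was not called without ALX-5407 replicate 2 (log2 fold change -0.25, adjusted p = 0.0746). The ratio of Dbf4 to Cdc7 per kilobase, also chosen after its values were seen, was 0.455, 0.445 and 0.383 in vehicle and 0.768, 0.838 and 0.831 with ALX-5407. Its mean went from 0.427 ± 0.0390 to 0.813 ± 0.0385 (SD, n = 3, exact permutation p = 0.1, the smallest possible).

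Among the polymerases, 7 of 9 genes rose and Prim2 and Pold3 were not called, with a median log2 fold change of 0.60. Pole, the catalytic subunit of the leading strand polymerase epsilon, was at 58.2, 51.7 and 62.0 CPM against 105, 99.4 and 116 CPM and had the largest log2 fold change of the group (0.90, adjusted p = 3.46e-07). Its partner Pole2 went from 12.9 ± 1.35 to 19.5 ± 0.839 CPM (SD, n = 3, log2 fold change 0.60). Polymerase alpha-primase makes the RNA-DNA primers, and its subunits split. Pola1, its polymerase, was at 46.7, 49.7 and 56.8 CPM against 88.0, 81.9 and 94.2 CPM, and Pola2, its accessory subunit, at 36.0, 36.3 and 36.9 CPM against 61.1, 53.7 and 58.9 CPM. Both separated the groups, with log2 fold changes of 0.79 and 0.67. The catalytic primase Prim1 was at 41.7, 40.5 and 47.6 CPM against 57.9, 54.5 and 55.4 CPM, and the large primase subunit Prim2 at 55.1, 50.01 and 57.0 CPM against 50.2, 50.4 and 44.1 CPM. Prim1 was higher with no overlap (log2 fold change 0.37, adjusted p = 0.00136), whereas Prim2 overlapped, with a log2 fold change of -0.16 (95% interval -0.34 to 0.012, adjusted p = 0.117). Under 4 alternatives Prim2 was called lower, at -0.21 to -0.26.

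For polymerase delta, which copies the lagging strand, the catalytic subunit Pold1 was at 108, 94.2 and 102 CPM against 180.0, 174 and 165 CPM. Pold2 was at 51.8, 48.6 and 39.7 CPM against 67.0, 63.8 and 59.3 CPM. Both rose, with log2 fold changes of 0.77 (adjusted p = 4.40e-07) and 0.44 (adjusted p = 0.00107). Pold3, a subunit that contacts PCNA, was at 79.8, 77.3 and 76.6 CPM against 83.7, 80.0 and 86.7 CPM. All 3 of its ALX-5407 values lay above the vehicle values, but by so little that it was not called (log2 fold change 0.10, 95% interval -0.049 to 0.25).

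The values of the clamp itself overlapped between the groups. Pcna, which had the highest level per kilobase of the 49 genes, was at 298, 327 and 363 CPM in vehicle and 357, 347 and 317 CPM in ALX-5407 cultures. These overlapped, with a log2 fold change of 0.050 and a 95% interval of -0.12 to 0.22. Of the 5 subunits of the clamp loader RFC, which opens PCNA and sets it on primed DNA, 4 rose. Rfc5 was at 29.1, 31.8 and 32.7 CPM against 58.2, 57.0 and 58.8 CPM, and Rfc3 at 43.3, 50.04 and 50.6 CPM against 70.1, 71.3 and 76.1 CPM. These were the clearest, with log2 fold changes of 0.90 (adjusted p = 1.77e-07) and 0.60 (adjusted p = 1.54e-05) and no overlap. Rfc4 was at 21.7, 23.4 and 29.8 CPM against 31.0, 34.4 and 31.7 CPM, and the large subunit Rfc1 at 140.1, 129 and 129 CPM against 158, 145 and 168 CPM. Both separated the groups by a narrow gap, with log2 fold changes of 0.38 (adjusted p = 0.00984) and 0.24 (adjusted p = 0.0148). The call of Rfc4 was lost without vehicle replicate 1 (adjusted p = 0.0707), and that of Rfc1 without vehicle replicate 2 (0.0663), without ALX-5407 replicate 3 (0.0694) and with a correction for gene length (0.113). Rfc2 was at 88.5, 88.3 and 93.3 CPM against 93.3, 96.8 and 91.5 CPM and was not called (95% interval of the log2 fold change -0.087 to 0.21).

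RPA coats single-stranded DNA as a complex of 3 subunits. Rpa1, the large DNA-binding subunit, was at 104, 100.4 and 107 CPM against 169, 181 and 195 CPM, and Rpa2, the subunit that checkpoint kinases phosphorylate, at 27.8, 28.0 and 30.1 CPM against 45.3, 44.4 and 45.7 CPM. Both were higher in all ALX-5407 libraries (log2 fold changes 0.80 and 0.66, adjusted p = 2.74e-07 and 5.17e-06). The small subunit Rpa3 was at 22.2, 22.1 and 29.9 CPM against 25.6, 25.2 and 23.5 CPM, so that the ALX-5407 values lay inside the vehicle range, with a log2 fold change of 0.0031 (95% interval -0.24 to 0.24). Rpa3 has the shortest exon length of the 49 genes, 1136 bases, within the class of genes whose median log2 fold change was -0.26. With a correction for gene length its log2 fold change was 0.22 (adjusted p = 0.129), and 0.23 with the replicate block as well (adjusted p = 0.0575).

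The enzymes that process Okazaki fragments all rose. Fen1 (chromosome 19, 10199132 to 10204169, minus strand), the flap nuclease, had the largest log2 fold change of the 49 but the lowest counted level. It had 27, 33 and 50 counts in vehicle and 108, 103 and 105 counts in ALX-5407 libraries, or 0.829, 1.05 and 1.62 CPM against 3.06, 2.76 and 2.99 CPM. The groups did not overlap, and the log2 fold change was 1.33 ± 0.270 (SE, adjusted p = 0.000691). Of the genes over its exons, Gm10143 on the opposite strand itself held 110 counts over all 6 libraries. As other genes cover 84.2% of the exon bases of Fen1, its counts may not give its true level. Lig1, the ligase that seals the fragments, went from 122 ± 13.9 to 197 ± 4.47 CPM (SD, n = 3, log2 fold change 0.69, adjusted p = 3.90e-06). Dna2, a nuclease and helicase for long flaps, went from 13.2 ± 2.42 to 19.7 ± 2.31 CPM (log2 fold change 0.58, adjusted p = 0.00165).

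All 3 fork protection genes and both CAF-1 genes rose. Clspn encodes claspin, the mediator between ATR and Chk1, and was at 37.2, 48.7 and 37.7 CPM against 77.3, 66.7 and 71.6 CPM. Timeless, its neighbour at the fork, was at 45.6, 44.9 and 45.7 CPM against 74.1, 74.3 and 74.3 CPM. Both separated the groups, with log2 fold changes of 0.80 (adjusted p = 6.67e-06) and 0.71 (adjusted p = 6.01e-07). Tipin, the binding partner of Timeless, rose less, from 51.8 ± 1.37 to 66.7 ± 2.51 CPM (SD, n = 3, log2 fold change 0.36, adjusted p = 0.000618). CAF-1 lays histones H3 and H4 on new DNA. Its large subunit Chaf1a was at 40.1, 46.9 and 40.7 CPM against 79.1, 74.1 and 75.6 CPM, and Chaf1b at 17.9, 17.2 and 15.6 CPM against 33.3, 30.8 and 34.1 CPM. The groups did not overlap for either, with log2 fold changes of 0.84 (adjusted p = 3.98e-07) and 0.95 (adjusted p = 5.53e-07).

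**Figure D3:**
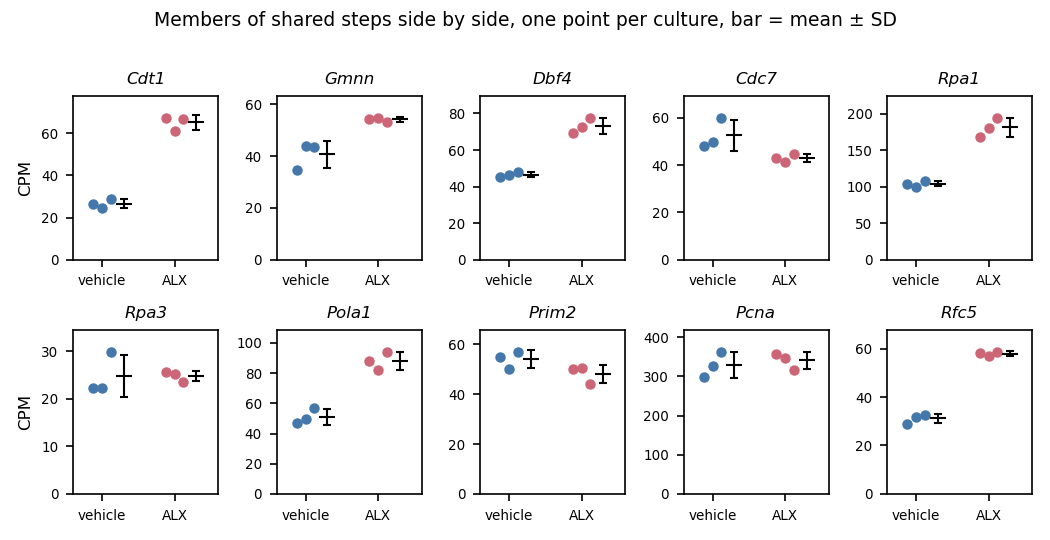
CPM (y axis, from 0) in each culture for genes that act in a shared step, with vehicle in blue, ALX-5407 in red and bars for mean ± SD (n = 3). Cdt1 rises by more than Gmnn, Dbf4 rises where Cdc7 falls, and Rpa1, Pola1 and Rfc5 separate the groups where Rpa3, Prim2 and Pcna overlap.

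Compared per kilobase of the gene length in the table, which equals the annotated exon length for 48 of the 49 genes (all but Pola2), the order of the 49 genes ran in vehicle cultures from Pcna at 137 ± 13.6 to Fen1 at 0.483 ± 0.169 CPM per kilobase (SD, n = 3). After Pcna came Mcm6 (45.7 ± 3.61), Mcm3 (39.7 ± 1.498), Mcm4 (35.5 ± 0.643) and Mcm5 (33.0 ± 1.53), and these kept ranks 2 to 5 with ALX-5407. Before Fen1 came Dna2 (2.24 ± 0.412) and Gins3 (3.52 ± 0.186), which also kept their ranks. The place of Fen1 is uncertain, since exon overlap may have changed its counts. Neighbours such as Gmnn and Tipin (27.8 ± 3.57 and 27.7 ± 0.733) or Mcm2 and Cdc7 (12.6 ± 0.0558 and 12.6 ± 1.57) did not differ beyond their spread in vehicle cultures. With ALX-5407 Mcm2 stood at 26.7 ± 0.622 and Cdc7 at 10.3 ± 0.412, at ranks 13 and 31. Cdt1 moved from rank 29 to 18 and Orc5 from rank 30 to 46.

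Within complexes, subunit levels per kilobase drew closer or apart to different extents. In ORC the highest over the lowest level was 4.34 in vehicle (Orc6 over Orc1) and 3.08 with ALX-5407 (Orc6 over Orc5). In RFC it went from 3.30 to 2.10 (Rfc1 over Rfc5) and in MCM2-7 from 3.63 to 3.04 (Mcm6 over Mcm2). In RPA it was 2.27 in vehicle (Rpa3 over Rpa2) and 2.16 with ALX-5407 (Rpa1 over Rpa2), so the highest subunit changed. In GINS it went from 5.55 to 5.94. In polymerase alpha-primase it went from 2.19 (Pola2 over Pola1) to 2.48 (Pola2 over Prim2) on the gene lengths in the table. It went from 2.55 to 2.07 with Pola2 on its annotated exon length of 8294 bases in place of 2872. On that length Pola2 is the lowest subunit and not the highest. Among the 3 polymerase delta genes it went from 1.46 (Pold2 over Pold3) to 1.96 (Pold1 over Pold3). The small subunit Pold4, which is not among the 49, stood at 162 against 75.2 CPM per kilobase. With Pold4 included, the ratio went from 9.56 to 4.15. Both of these alternatives were added after seeing the data. Set against the mean of its partners in the same library, the log2 ratio of Prim2 moved by -0.77, of Orc2 by 0.73, of Rpa3 by -0.71, of Rfc5 by 0.58 and of Orc5 by -0.52, while Mcm3 to Mcm7 moved by -0.09 to 0.03 and Mcm2 by 0.23. The ratio of Pold3 moved by -0.51 against Pold1 and Pold2, and by 0.062 with Pold4 among its partners. In 22 of the 31 subunits the ratios of the groups did not overlap. Among single genes, 28.4% of all tested genes lay fully higher with ALX-5407 and 27.1% fully lower. No such share was computed for ratios of other genes, and the ratios within a complex depend on each other. The two-sided exact permutation test cannot go below p = 0.1 with 3 against 3 (0.141 after Benjamini-Hochberg adjustment over the 31), so none could pass the threshold.

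**Figure D4:**
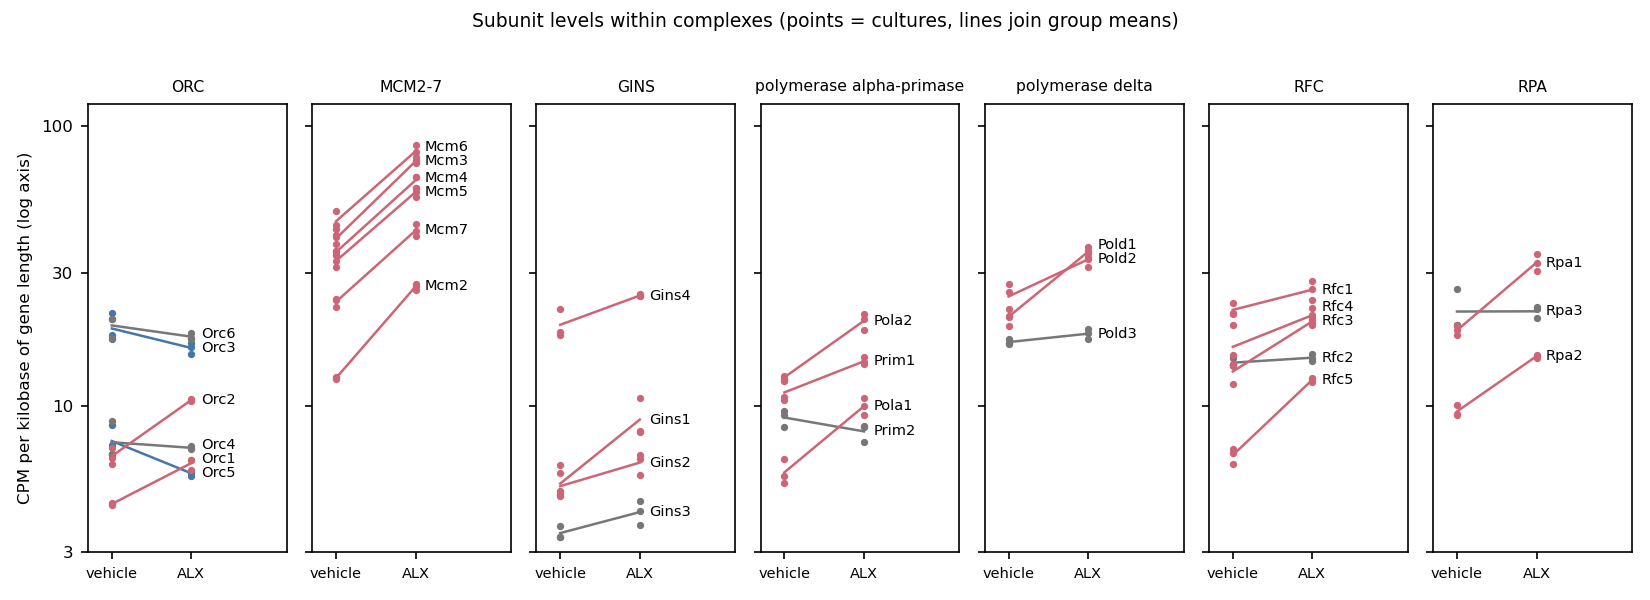
CPM per kilobase of gene length (y axis, log scale) of the subunits of 7 complexes, with a point for each culture and a line joining the means of vehicle and ALX-5407 cultures, coloured as higher (red), lower (blue) or not called (grey). The MCM2-7 lines run nearly parallel, with Mcm2 steepest, while lines cross in ORC, polymerase alpha-primase, polymerase delta, RFC and RPA. Pola2 is drawn on the gene length in the table, and Pold4 is not drawn.

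Genes around the fork outside the 49 went the same way in most lists. Of 38 other replication factors, 27 were called higher and 2 lower (median log2 fold change 0.42). Those with the smallest p were Asf1b (1.07), a histone chaperone that hands H3 and H4 to CAF-1, Ticrr (0.95), which brings Cdc45 to origins, and Recql4 (1.07), a helicase of origin firing, with Pold4 (-1.10), the small subunit of polymerase delta, and Rnaseh2b (-0.38) lower. Of 12 genes for the turnover of licensing factors and the S phase kinases, 9 were higher and 1 lower, with Ccne1 (cyclin E1, 1.19), Fbxo5 (Emi1, 1.10) and Ccna2 (cyclin A2, 0.74) against Cul4b (-0.26). Nucleotide supply had 9 of 11 higher and 1 lower, with Rrm2 (1.52) and Rrm1 (0.77), the subunits of ribonucleotide reductase, and Dck (0.68) against Samhd1 (-0.66), which breaks down dNTPs. In the E2F and pocket protein list 11 of 16 were higher and 1 lower, with E2f8 (0.91), Foxm1 (0.87) and Mybl2 (0.62) against E2f5 (-0.58).

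Genes of mitosis, which act after S phase, were called higher in 24 of 28 cases and lower in 0, with a median log2 fold change of 0.52. Espl1, the protease separase, had 1.08, Ect2 0.96 and Aurka, a spindle kinase, 0.95. The replication checkpoint list had 4 of 9 higher and 0 lower, with Wee1 at 1.16 and Etaa1 and Chek1 at 0.42 each, and a median of 0.20. The values in these lists are log2 fold changes from the same fit, and the background shares given above apply.

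**Figure D5:**
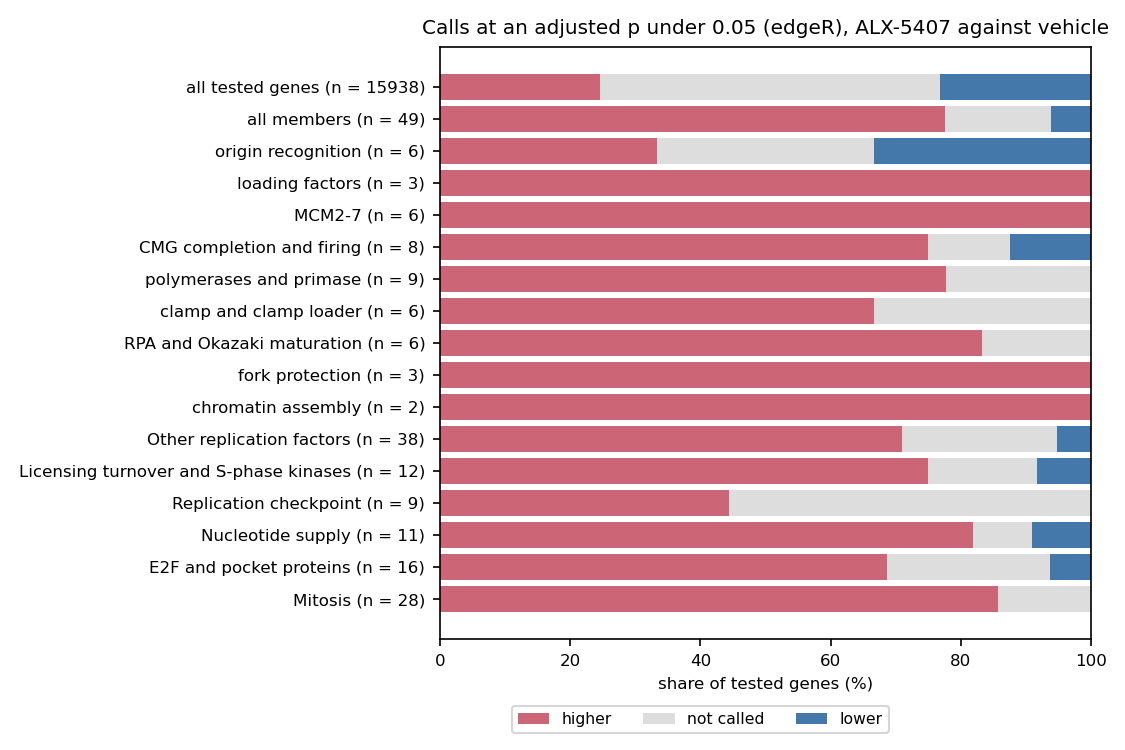
Share of tested genes (x axis, %) called higher (red), not called (grey) and lower (blue) with ALX-5407 for all tested genes, all 49 members, their role groups and the other lists, with the number of genes in brackets. The members reach 77.6% higher against 24.5% of all genes. Origin recognition has 33.3% higher and 33.3% lower, near the 24.5% and 23.2% of all genes.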

How the data were processed

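Total RNA was extracted with TRIzol. The labels name poly-T capture of messenger RNA and the study's methods name ribosomal RNA depletion, and which was used is not settled here. Per the submitters' processing notes, the authors used fastp, HISAT2 2.0.5 and featureCounts 1.5.0-p3 with the mm10 build. The strand setting of the counting is not given in the sources used here. The deposited values are raw read counts per gene, with 0 columns of no sample, and the depth was 30801753 to 36727788 counts per library. CPM and CPM per kilobase were computed from them with TMM factors and the gene length in the table.

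Genes were kept by filterByExpr with a minimum of 10 counts (15 in total) and tested with the edgeR 4.0.16 quasi-likelihood test in R 4.3.3, without covariates, 3 against 3, with Benjamini-Hochberg adjustment over 15938 genes and a threshold of 0.05. The script was tested on simulated data first. DESeq2 1.42.0, limma-voom (limma 3.58.1), other scaling, filters, length and GC corrections, a replicate block and leaving out each library were alternatives. DESeq2 was the authors' own test. p-values measure the spread between these cultures, which may in part be technical. The replicate numbers were not taken to pair the cultures, though whether they do is not known.

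The members, gene lists and tests were chosen with earlier results of these data known. Every member is named. Values in each library are given for members among the 20 largest called changes, for called members that went against the majority and for subunits of complexes that moved apart. From each other list at most 3 genes with the smallest p in each direction are named. Exon overlap was read from GENCODE M21, where 98.3% of the matched gene IDs had the same coordinates as in the table, and pseudogene copies were sought with BLAST 2.17.0. Promoter windows came from RefSeq tables, with no window for Gmnn, Mcm4, Gins1, Gins2, Gins4, Prim2, Pole, Rfc2 and Tipin. For Orc5 only the bases outside exons are shown.

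The value of 1 listed marker gene is not reported here.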

Additional observations from a re-analysis of the deposited data

How the results depend on the processing

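Over 17 alternatives, 797 of 833 values of single members kept their direction and their side of the threshold, 39 members did so in every alternative, and 35 were called higher and 1 (Orc5) lower in all of them. Between 36 and 38 members were called higher. The alternatives that leave out 1 library gave 1 to 3 members called lower, 1 to 2 in origin recognition and 0 to 1 in the helicase completion and firing group. In the polymerase and primase group 1 gene, Prim2, was called lower under upper quartile scaling, among protein-coding genes only, and with the length correction, with and without the replicate block. Signs turned only in genes near 0. Orc4 went to 0.032 with the GC correction (taken from transcripts, added after seeing the data, since no genome was given) and ran from -0.14 to 0.059 when 1 library was left out. Pcna went to -0.0036 with upper quartile factors and ran from -0.025 to 0.11 when 1 library was left out. Rfc2 was at -0.037 with the length correction and -0.037 with the replicate block and length correction. Rpa3 was at -0.0097 with RLE factors, -0.0098 with DESeq2, -0.025 with at least 50 counts in 3 libraries, -0.044 among protein-coding genes, -0.050 with upper quartile factors, and -0.081 to 0.14 when 1 library was left out, and at 0.22 to 0.23 with the length correction. The causes were not tested.

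Same-numbered cultures deviated together with correlations of -0.0084, 0.0036 and 0.063, so the numbers were not taken to pair them. With the replicate number as a block, 38 members were called higher and 3 lower, as without it, and 4071 genes of all were higher and 3833 lower in place of 3910 and 3695. Each group had 3 cultures, so ratios within complexes could not reach an exact p under 0.1, and levels of Fen1 rest on 27 to 108 counts per library.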
